A study of Mus musculus with 8 samples.

Results

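The 45 guidance genes described here belong to the reelin, semaphorin, plexin, neuropilin, slit, roundabout and netrin families. They were chosen by gene symbol, and each was found on the array through the RefSeq accession of its probe, among 20144 genes that could be named. The set holds Reln with its receptors Vldlr and Lrp8 and the adaptor Dab1, 7 class 3 semaphorins, 13 membrane semaphorins, 9 plexins, 2 neuropilins, 3 slits, 3 roundabouts, 2 netrins and 2 netrin receptors.

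Messenger RNA was measured with Cy3 on 8 mouse arrays, 1 for each group. Of these, 5 hold liver cells that were negative for CD45 and Ter119 and positive for p75NTR, from fetuses at E11.5, E13.5 or E14.5, from late fetuses at E17.5 and from newborns at P1. The sixth holds adult hepatic stellate cells (HSC), sorted by their vitamin A, and the others hold MEF, fibroblasts of embryonic skin grown in culture, and MSC, purified mesenchymal stem cells from bone marrow. CD45 marks blood cells, Ter119 marks red cells, and p75NTR is the neurotrophin receptor encoded by Ngfr. Strain, genotype and the number of animals behind an array are not given in the sources used here. No group has a replicate, so the spread in every fit below is that between arrays of unlike stage or cell type, and a difference between 2 arrays has no test.

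Guidance molecules were named for steering growing axons, and they also act on vessels, immune cells and mesenchyme. Reelin is a large secreted glycoprotein that binds Vldlr and Lrp8 and acts through Dab1. Semaphorins signal through plexins, with neuropilins as co-receptors for most class 3 members, slits signal through roundabouts, and netrins through the Dcc and Unc5 receptors. In the liver, stellate cells lie between the sinusoidal endothelium and the hepatocytes, and reelin is a known product of stellate cells.

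Each value is a log2 level: the processed spot signal relative to the array's 75th percentile, so that 0 is the brightness of a probe at that percentile. Levels were compared between arrays for the same probe and never between genes. A probe that was not well above the local background on an array has only an upper limit there, and a fold against it is given as "at least". Between 58.8% and 64.5% of the 43020 spots were well above background on an array, none was saturated, and the slope of the spike-in controls was 0.849 on the E11.5 array against 0.922 to 0.933 on the others. The 4 fetal arrays shared a slide (slide 1), and all later and non-liver arrays shared another (slide 2). Ngfr ranged from 3.24 to 4.97 on the p75NTR arrays, 6.42 on adult HSC, 1.37 on MEF and -5.73 on MSC, and Ptprc, which encodes CD45, was not well above background on any of the 6 liver-derived arrays. Other blood transcripts were present. On the p75NTR arrays 3 to 6 of 10 leukocyte markers and 6 to 8 of 9 erythroid markers were well above background. The erythroid sum of linear levels was highest at E17.5 (131). The leukocyte sum was highest on MEF (17.4, with 9 of the 10 markers above background). It was 3.12 to 11.3 on the liver-derived arrays and 5.95 on MSC. Lrat, the enzyme that makes retinyl esters for storage, stood at -4.68 on the E11.5 array, 2.16 on E17.5 and 5.12 on adult HSC, while MEF and MSC were below background. Transcripts of other cells were present as well: the summed linear level of 15 endothelial markers was 39.7 to 101 on the p75NTR arrays and 296 on adult HSC (27.1 to 64.0 and 85.8 without Plvap, the brightest), and that of 10 hepatocyte markers was 10.8 at E11.5 and 1239 at E14.5. In bulk samples, fewer cells of a type and less RNA per cell cannot be told apart.

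Promoter sequences are shown for Reln and Plxnb1 as examples of windows with many GC boxes, and for Robo4 as one without. The choice of these genes and of the motif was made after their values and sequences were seen. Each window is a RefSeq window of 300 bases on GRCm38.p6, from 250 bases before to 50 after the annotated start, and capitals mark the GC box GGGCGG on either strand (CCGCCC on the strand shown).
Reln, chr5:22344656-22344955, minus strand: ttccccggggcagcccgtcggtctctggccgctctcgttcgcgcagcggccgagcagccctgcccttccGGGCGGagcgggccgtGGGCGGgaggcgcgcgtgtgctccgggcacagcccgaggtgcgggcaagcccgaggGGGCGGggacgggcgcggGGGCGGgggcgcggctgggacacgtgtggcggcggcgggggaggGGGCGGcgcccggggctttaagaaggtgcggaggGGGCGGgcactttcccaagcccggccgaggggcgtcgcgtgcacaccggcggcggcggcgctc
Plxnb1, chr9:109095186-109095485, plus strand: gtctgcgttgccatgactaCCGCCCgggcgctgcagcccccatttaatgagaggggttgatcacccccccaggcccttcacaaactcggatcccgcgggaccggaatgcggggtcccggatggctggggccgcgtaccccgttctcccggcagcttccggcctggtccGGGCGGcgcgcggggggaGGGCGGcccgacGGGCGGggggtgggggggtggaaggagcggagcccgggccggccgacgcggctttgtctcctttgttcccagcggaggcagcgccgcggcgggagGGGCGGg
Robo4, chr9:37401722-37402021, plus strand: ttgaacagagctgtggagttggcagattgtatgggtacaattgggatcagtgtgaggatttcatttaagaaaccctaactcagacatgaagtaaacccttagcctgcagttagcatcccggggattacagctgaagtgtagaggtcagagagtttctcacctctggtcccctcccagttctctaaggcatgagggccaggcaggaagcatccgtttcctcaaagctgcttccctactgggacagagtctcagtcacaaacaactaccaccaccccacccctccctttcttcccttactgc

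The Reln window holds 6 GC boxes and is 80.7% G and C, the Plxnb1 window holds 5 and is 74.7% G and C, and the Robo4 window holds none and is 50.3% G and C. Robo2, higher on the liver-derived arrays below like Reln and Plxnb1, has none in any of its 3 windows, while Slit3 has 6 and Nrp2 and Sema5a have 5 each without passing that test. Over the set, 38 of the 45 genes had a window, 55 windows in all because 12 genes have several starts. The GC box occurred in 34 of these 55 windows (61.8%), against 35.7% of all 32851 windows of the same length, and TATAAA, searched on both strands, occurred in 1 (1.8%), against 13.6%. The median G and C content was 63.7% for the guidance genes and 52.7% for all windows. These counts describe letters in a window and name no binding factor.

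All 45 genes had a probe well above background on at least 1 array, as did 16519 of the 20144 named genes. On all 8 arrays 24 were so, against 56% of all named genes. On the 5 p75NTR arrays 39 genes were well above background throughout, against 63% of all named genes. On adult HSC and on MSC 11 genes each were below background (all genes: 34.9% and 32.5%), and on MEF 4 were (all genes: 28.1%). The plot of all 45 genes shows these as circles. A gene of the set was highest on adult HSC in 11 cases (all genes: 21.2%), on P1 in 7 (10.8%), on MEF in 7 (10.7%), and on MSC in 3 (24.7%). The remaining genes were highest on one of the fetal arrays, for which the share of all genes is not given here.

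**Figure D1:**
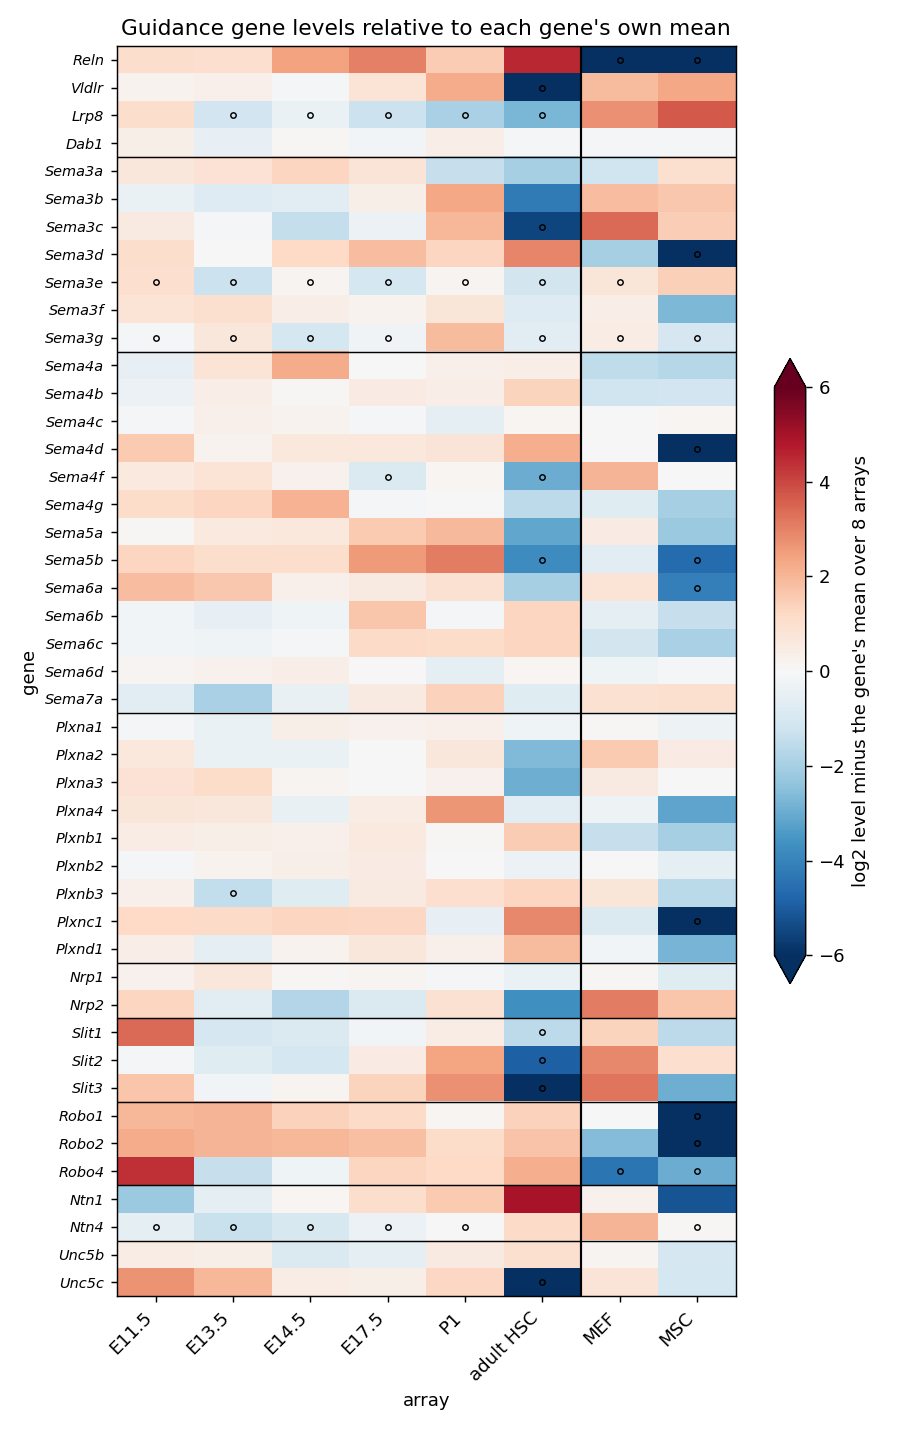
Log2 level of each of the 45 genes (rows, grouped by role) on each of the 8 arrays (columns), minus the gene's own mean over the arrays; the colour scale ends at 6 either way and circles mark probes not well above background. Reln is above its mean on the 6 liver-derived arrays and below background on MEF and MSC. Vldlr, Sema3c, Slit1, Slit2, Slit3 and Unc5c are above background on every array but adult HSC.

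The broad comparison set the 6 liver-derived arrays against MEF and MSC. In limma's fit with Benjamini-Hochberg adjustment over 16519 genes, 1.57% of genes passed an adjusted p of 0.05, 0.848% as higher and 0.726% as lower on the liver-derived arrays. Of the 45 guidance genes, Reln, Robo2 and Plxnb1 were higher and none was lower. At an unadjusted p under 0.05, 13 were higher and 2 lower, against 10.7% and 8.95% of all genes. All 6 liver-derived arrays lay above both others for 12 genes (all genes: 12.7%) and below both for 2 (all genes: 10.4%). The median difference over the set was a log2 value of 0.44, and over all genes tested it was 0.02. The plot of 8 of these genes shows the levels behind the counts.

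**Figure D2:**
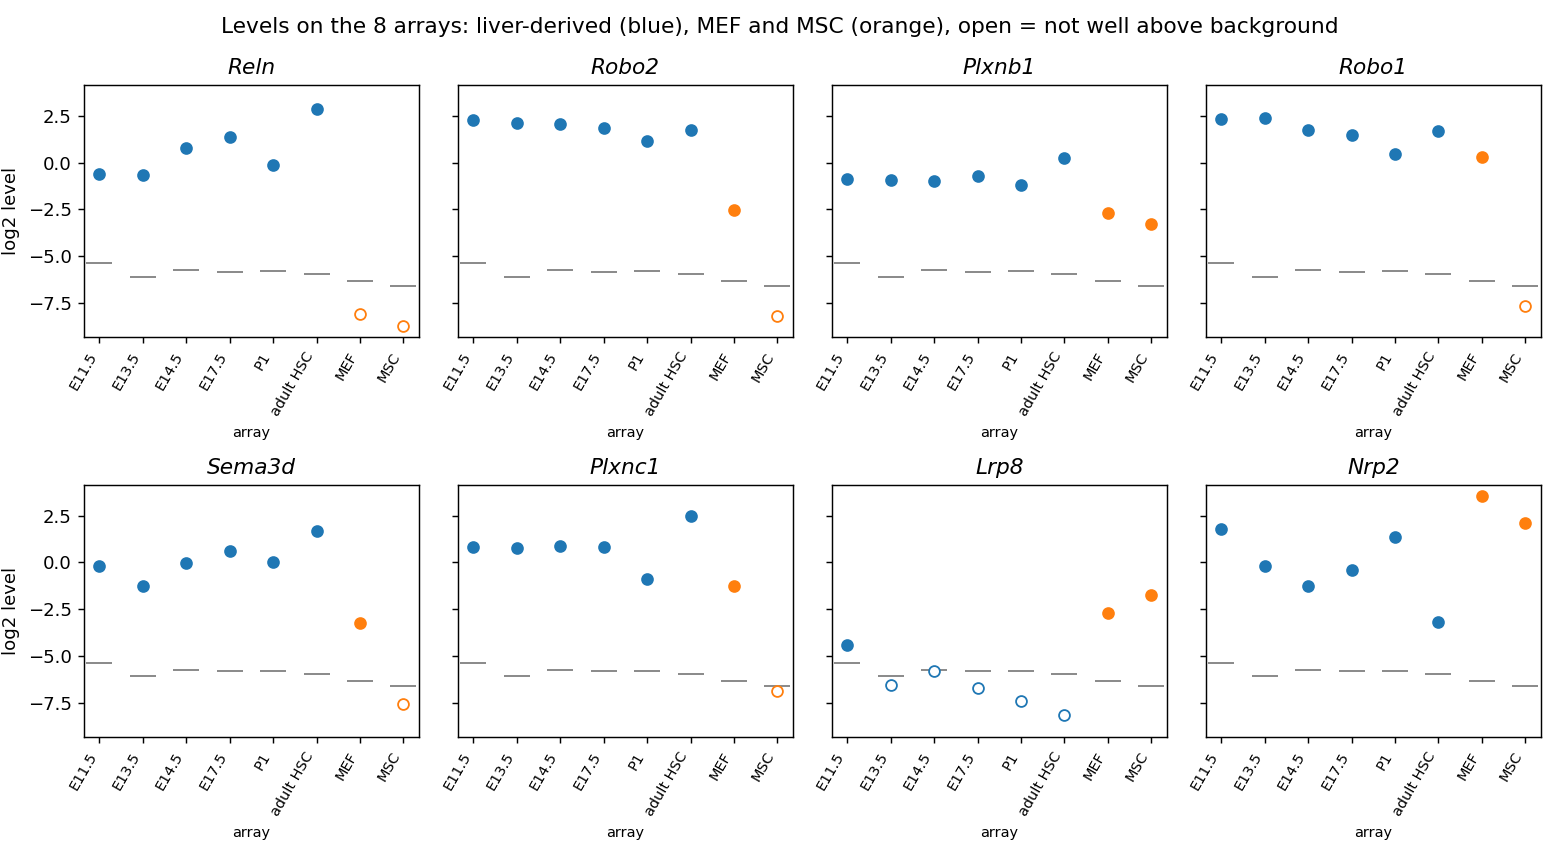
Log2 levels of 8 guidance genes on the 8 arrays, liver-derived in blue and MEF and MSC in orange; open circles are probes not well above background and grey dashes the lowest signal above background per array. For Reln, Robo2, Plxnb1, Robo1, Sema3d and Plxnc1 each blue point lies above both orange points, and for Lrp8 and Nrp2 each lies below.

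Reelin showed the widest gap. The Reln level was -0.60 at E11.5, -0.66 at E13.5, 0.78 at E14.5, 1.38 at E17.5 and -0.11 at P1. It was 2.89 on adult HSC, the highest of the 8 arrays, and below background on MEF (-8.09) and MSC (-8.72). The liver-derived arrays were thus at least 135-fold higher, with a fitted log2 difference of 9.02 ± 0.93 (SE; limma adjusted p = 0.00571, 6 of 6 arrays higher). With the slide as a block the log2 difference was 9.80 and the adjusted p 0.0243. The other slide holds liver-derived arrays only, so for every gene the block fit takes this difference from slide 2 alone. The 9.80 within slide 2 is therefore the same estimate, with an adjusted p of 0.419 on 4 arrays. With the normexp background correction the log2 difference was 3.69 with an adjusted p of 0.0705. Over all alternatives the adjusted p ran from 0.0028 to 0.419. The Reln level on adult HSC was 7.97-fold that at P1. Over the 6 liver-derived arrays Reln followed the mean level of 12 stellate cell markers with a Spearman correlation of 0.943, and 4.72% of all genes had a correlation with that mean of at least 0.9. The points of that correlation share their arrays and normalization. In the plot of Reln against the stellate markers E11.5 and E13.5 change places. Reln was -0.60 and -0.66 there, and the marker mean was 2.60 and 2.92.

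On adult HSC, MEF and MSC the reelin receptors ran opposite to Reln. Vldlr, a lipoprotein receptor family member, was at 0.03, 0.11, -0.30 and 0.63 on the fetal arrays in order of age, 2.04 at P1, 1.71 on MEF and 2.14 on MSC. It was below background on adult HSC (-7.78). The liver-derived arrays overlapped MEF and MSC, with a fitted log2 difference of -2.80 ± 2.29 (SE, limma adjusted p = 0.514). P1 was 4.03-fold above E11.5 and at least 253-fold above adult HSC. A dimmer probe of Vldlr, well above background on 3 arrays only, put P1 at least 2.32-fold above adult HSC.

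Lrp8, the other reelin receptor, was well above background on only 3 arrays: E11.5 (-4.39), MEF (-2.71) and MSC (-1.75). On the liver-derived arrays from E13.5 to adult HSC it lay below background, between -8.16 and -5.82. MEF and MSC were both above all 6 liver-derived arrays, but the fitted log2 difference of -4.28 ± 0.90 (SE) did not pass the threshold (limma adjusted p = 0.0691). Without the E11.5 array it did (adjusted p = 0.0319), and over all alternatives the adjusted p ran from 0.0188 to 0.646. The log2 difference itself ran from -5.55 to -0.52 over these alternatives, so its size is uncertain. For Lrp8, P1 was at least 2.65-fold below E11.5 by the bound. On adult HSC, the array with the highest Reln level, both receptors were below background.

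Dab1, the intracellular adaptor of the pathway, was flat on the brightest of its 4 probes, from -3.33 at E13.5 to -2.44 at P1, with MEF at -2.92 and MSC at -2.91. Its span of 0.89 on the log2 scale was among the smallest of the set. The other 3 probes were near or below background, 1 of them on all 8 arrays.

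Among the roundabouts, the receptors of slits, all 3 genes were above MEF and MSC on all 6 liver-derived arrays (all genes: 12.7%). Robo2 was at 2.30, 2.09, 2.05, 1.84 and 1.15 from E11.5 to P1, lower at every step, and at 1.76 on adult HSC. On MEF it was -2.54 and on MSC below background (-8.17). The log2 difference was 7.22 ± 1.21 (SE; limma adjusted p = 0.0374), or 85.9-fold when the MSC value is raised to the lowest signal marked as above background there. The call was lost with the slide as a block (6.81, adjusted p = 0.120) and within slide 2 (6.81, adjusted p = 0.540). It was also lost when any of the 4 fetal arrays or P1 was left out, with adjusted p from 0.0669 to 0.0963. Without MSC the log2 difference was 4.40 and with normexp 3.65, both past the threshold, and over all alternatives the adjusted p ran from 0.000175 to 0.540.

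Robo1 was at 2.35, 2.39, 1.73, 1.48 and 0.48 from E11.5 to P1 and 1.71 on adult HSC. MEF, at 0.30, lay close under P1, and MSC was below background (-7.68). The log2 difference of 5.38 ± 1.73 (SE) did not pass the threshold (limma adjusted p = 0.167). The size rested on MSC, where the probe has only an upper limit: without MSC the log2 difference was 1.39 (adjusted p = 0.593), and without MEF the fit passed the threshold (adjusted p = 0.000978) against the MSC array alone. Over all alternatives the adjusted p ran from 0.000978 to 0.593. Robo1 and Robo2 had downward slopes over the 5 stages of -0.46 ± 0.09 and -0.25 ± 0.08 per stage (SE), with limma adjusted p of 0.0808 and 0.126.

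Robo4, the roundabout of endothelial cells, was at 0.70 at E11.5 and then at -5.07, -3.91, -2.40 and -2.48 up to P1. It was -1.51 on adult HSC and below background on MEF (-8.08) and MSC (-6.63), so that the liver-derived arrays were at least 16.1-fold higher on average (limma adjusted p = 0.132). E11.5 stood apart: the level there was 8.59-fold that at E17.5 and 9.07-fold that at P1. Over the 6 liver-derived arrays Robo4 had the same order as the mean log2 level of the 15 endothelial markers (Spearman correlation 1). A correlation of at least 0.9 was found for 0.419% of all genes. By the summed linear level of these markers the order differed. E11.5, where Robo4 was highest, stood at 46.3, against 39.7 at P1 and 47.5 to 296 on the other liver-derived arrays. Of the 15 markers, 9 were highest at E11.5 among these arrays, such as Tie1, an endothelial receptor kinase, at -1.89. Others were lowest there, such as Clec4g, a lectin of the sinusoidal endothelium, at -1.28 against 4.05 at E17.5, and Eng, at 0.70 against 3.43. The part of endothelial RNA in the Robo4 levels was not tested.

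**Figure D3:**
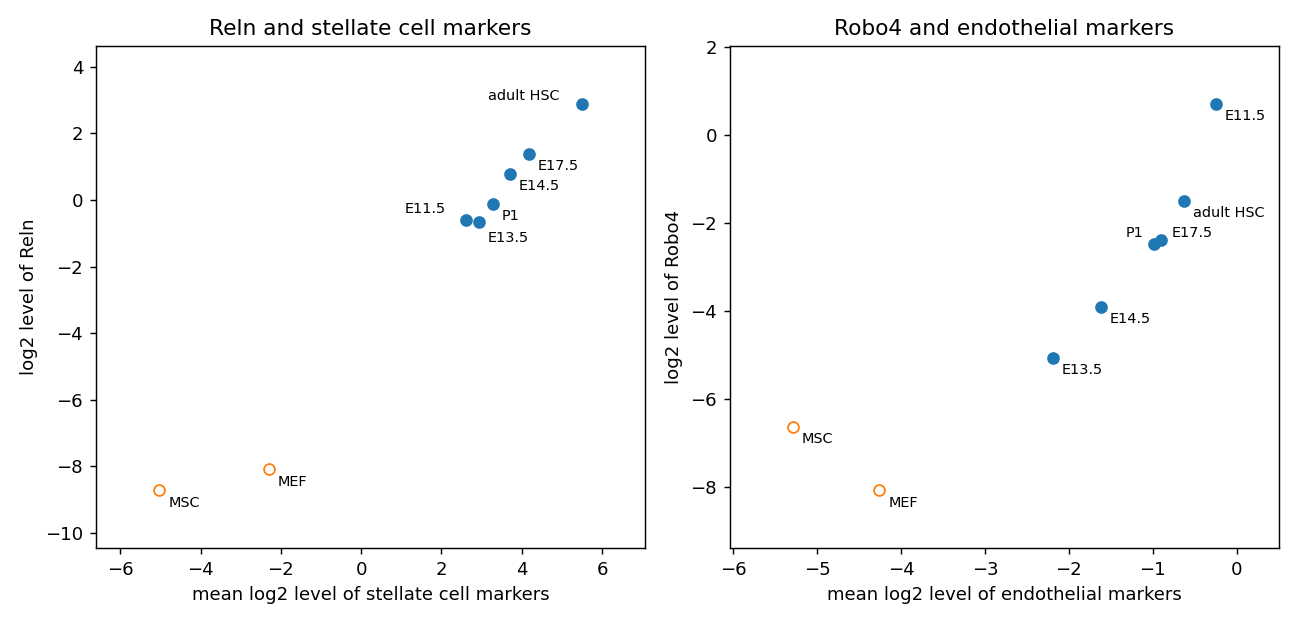
Log2 level of Reln against the mean log2 level of 12 stellate cell markers, and of Robo4 against that of 15 endothelial markers, 1 point for each array (blue liver-derived, orange MEF and MSC, open not well above background). Adult HSC is highest for Reln and E11.5 for Robo4, and MEF and MSC are low in both panels.

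The slits, the ligands of the roundabouts, were all below background on adult HSC (all genes: 34.9%). Slit2 was at -1.98, -2.66, -2.98, -1.40 and 0.46 from E11.5 to P1, 0.97 on MEF and -0.91 on MSC; P1 was 5.43-fold above E11.5 and at least 84.7-fold above adult HSC. Slit3 was at -0.04, -1.86, -1.53, -0.38 and 1.05, with 1.51 on MEF and -4.62 on MSC, and P1 was at least 127-fold above adult HSC. Both were lowest in mid-gestation among the p75NTR arrays and highest at P1.

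Slit1 differed from them by its peak at E11.5. Its level was -1.26 at E11.5, then -5.66, -5.49, -4.79 and -4.20 up to P1, -3.28 on MEF and -6.20 on MSC. E11.5 was 11.6-fold above E17.5, on the same slide, and 7.68-fold above P1, and the bound between P1 and adult HSC was at least 3.34-fold. Beside this, the summed level of 8 neural crest and glial markers was 3.58 at E11.5 and 0.49 to 1.19 from E13.5 to E17.5. It was 3.35 at P1, 0.24 on adult HSC and 0.29 on MSC, and highest on MEF (4.89). Of the 8 markers, 4 were above background at E13.5, on adult HSC and on MSC, and 6 or 7 on the other arrays. Sox10 was at -0.07 at E11.5. Over the 6 liver-derived arrays, Slit1, Slit3, Sema3b, Sema5b and Plxna2 had Spearman correlations of at least 0.9 with the mean of these markers, as did 1.43% of all genes. Correlations of at least 0.9 were also found with the stromal markers for Sema5a (all genes: 1.75%). With the mesothelial markers they were found for Plxna3, Sema3f and Sema6a (2.11%). The leukocyte markers gave Ntn4 and Plxnb3 (1.78%), the hepatocyte markers Sema3a (1.79%), and the erythroid markers no guidance gene (0.413%). The part of any of these cells in the levels was not tested.

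The class 3 semaphorins are secreted and bind neuropilins and plexins. Sema3d, a ligand expressed in developing mesenchyme and vessels, was the member that separated the groups: -0.17, -1.26, -0.04, 0.63 and 0.04 from E11.5 to P1, 1.69 on adult HSC, -3.25 on MEF and below background on MSC (-7.59). All 6 liver-derived arrays were higher, by a log2 difference of 5.57 ± 1.12 (SE) that missed the threshold (limma adjusted p = 0.0595). With low signals raised to the floor it was 5.06 (adjusted p = 0.0445). Without MSC it was 3.40 (adjusted p = 0.233), and without MEF the adjusted p was 0.00623 against MSC alone, where the probe has only an upper limit. Over all alternatives the adjusted p ran from 0.00623 to 0.540.

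Sema3b and Sema3c were high at P1 and low on adult HSC. Sema3b was at -1.88, -2.26, -2.16, -1.13 and 0.87 over the stages, 0.39 on MEF and 0.16 on MSC. At -5.71 on adult HSC it was still above background, and P1 was 95.9-fold higher. Sema3c was at -2.21, -2.85, -4.18, -3.12 and -0.76, 0.63 on MEF and -1.26 on MSC, and P1 was at least 36.3-fold above adult HSC, where it lay below background. P1 was 6.73-fold above E11.5 for Sema3b and 2.73-fold for Sema3c.

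Sema3a, a ligand that repels axons through Nrp1, was at 0.50, 0.71, 1.13 and 0.61 in the fetal cells and -1.55 at P1, 4.14-fold below E11.5. Adult HSC (-2.16) and MEF (-1.35) were low and MSC (0.79) high. Sema3f ranged from 2.22 on adult HSC to 3.94 at E13.5 among the liver-derived arrays, with 3.38 on MEF and 0.31 on MSC. Sema3g was well above background at P1 only (-4.98), at least 1.30-fold above E11.5 by the bound, and Sema3e on MSC only (-5.40).

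Of the 13 membrane semaphorins, 9 were well above background on all 8 arrays (all named genes: 56%). On all 6 liver-derived arrays 5 (Sema4a, Sema4b, Sema4d, Sema6b and Sema6c) were higher than on MEF and MSC (all genes: 12.7%). None passed the adjusted threshold. Sema4a was highest at E14.5 (1.24), between -1.47 and -0.17 on the other liver-derived arrays, and at -2.49 on MEF and -2.71 on MSC, with a log2 difference of 2.16 ± 0.65 (SE; limma adjusted p = 0.150). Sema6c was at -0.32, -0.41 and -0.27 up to E14.5, 0.97 at E17.5, 0.94 at P1 and 1.13 on adult HSC, against -1.25 on MEF and -2.13 on MSC, a log2 difference of 2.03 ± 0.56 (SE; limma adjusted p = 0.131).

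Sema4d, the ligand of Plxnb1, was at -0.27 at E11.5, between -1.63 and -1.04 from E13.5 to P1 and 0.33 on adult HSC. MEF, at -1.84, lay just under the lowest of these, and MSC was below background (-7.82). The log2 difference was 3.99 ± 1.34 (SE; limma adjusted p = 0.179). Without MSC it was 1.01 (adjusted p = 0.751), and without MEF the adjusted p was 0.00343 against the MSC array alone; these were the ends of its range over the alternatives. Sema4b ranged from -1.01 to 0.70 and Sema6b from -3.33 to -1.20 on the liver-derived arrays, above MEF (-1.83 and -3.41) and MSC (-1.78 and -4.24).

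The class 5 semaphorins carry thrombospondin repeats, and both were highest at P1. Sema5a was at 1.47, 1.98, 2.04, 2.97 and 3.35 from E11.5 to P1, higher at every step, then -1.70 on adult HSC, 1.88 on MEF and -0.82 on MSC. Sema5b was at -1.89, -2.11, -2.11, -0.61 and -0.10, -3.81 on MEF, and below background on adult HSC (-6.96) and MSC (-7.79). P1 was 33.2-fold above adult HSC for Sema5a and at least 57.5-fold for Sema5b.

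Sema6a and Sema7a were also lower on adult HSC than at P1. Sema6a, a transmembrane ligand of class A plexins, was at -0.64, -0.87, -2.21, -1.93 and -1.58 over the stages and -4.47 on adult HSC, 7.38-fold under P1; MEF was at -1.68 and MSC below background (-6.58). Sema7a, which is tethered to the membrane by a GPI anchor and binds Plxnc1, was at -3.68, -4.97, -3.44, -2.45 and -1.64, -3.75 on adult HSC, -2.07 on MEF and -2.04 on MSC. P1 was 4.10-fold above E11.5 and 4.31-fold above adult HSC for Sema7a.

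Of the remaining membrane semaphorins, Sema4f lay between -5.01 and -4.33 on the p75NTR arrays where it was above background, and below background at E17.5 and on adult HSC. Sema4g was highest at E14.5 (-0.36) and lowest on MSC (-4.47). Sema4c (3.17 to 4.09) and Sema6d (0.06 to 0.97) spanned less than 2-fold over the 8 arrays. For Sema6d this holds for the brighter of 2 probes only: the other was at -1.75 to 0.23 on the liver-derived arrays, -5.69 on MEF and below background on MSC (-7.19). A level for Sema6d on MEF and MSC is therefore uncertain.

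Plexins are the receptors of semaphorins, and 7 of 9 were well above background on all 8 arrays (all named genes: 56%). Plxnb1, the receptor of Sema4d, was at -0.85, -0.92, -0.97, -0.70 and -1.20 from E11.5 to P1 and 0.25 on adult HSC, against -2.68 on MEF and -3.27 on MSC. The liver-derived arrays were 4.74-fold higher, a log2 difference of 2.24 ± 0.41 (SE; limma adjusted p = 0.0477, 6 of 6 arrays higher). The call was lost with the slide as a block (2.50, adjusted p = 0.102) and within slide 2 (2.50, adjusted p = 0.540). It was lost with median normalization (1.87, adjusted p = 0.151), normexp (1.61, adjusted p = 0.218), quantile normalization (2.02, adjusted p = 0.0560) and no filter (adjusted p = 0.0508). It was lost as well when MSC, P1 or any of the 4 fetal arrays was left out, with adjusted p from 0.0673 to 0.233. Over all alternatives the adjusted p ran from 0.0162 to 0.540.

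Plxnc1, the receptor of Sema7a, was at 0.80, 0.75, 0.86 and 0.84 in the fetal cells, -0.89 at P1 and 2.49 on adult HSC, 10.4-fold above P1. MEF was at -1.28 and MSC below background (-6.89), and the log2 difference of 4.89 ± 1.37 (SE) did not pass the threshold (limma adjusted p = 0.134). Without MSC it was 2.09 (adjusted p = 0.581), and without MEF the adjusted p was 0.00847 against the MSC array alone; these were the ends of its range over the alternatives. Plxnd1, a receptor known from endothelium, ranged from 1.98 at E13.5 to 3.19 at E17.5 in the p75NTR cells and stood at 4.40 on adult HSC, 2.36 on MEF and -0.28 on MSC. The summed endothelial level was highest on adult HSC, at 296 (85.8 without Plvap), whereas the mean log2 level of the same markers was -0.63 there and -0.25 at E11.5. Their part in the Plxnd1 level was not tested.

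The class A plexins pair with neuropilins for class 3 ligands. Plxna2 was between -1.87 and -0.82 on the p75NTR arrays and -4.11 on adult HSC, 9.80-fold under P1, with 0.08 on MEF and -0.97 on MSC. Plxna3 was between -0.97 and 0.07 and then -3.96, 9.15-fold under P1, with -0.46 on MEF and -1.03 on MSC. Plxna4 was at -0.94, -1.0, -2.11 and -1.22 in the fetal cells, 0.98 at P1 and -2.30 on adult HSC, 9.77-fold under P1, with -1.98 on MEF and -4.86 on MSC.

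Of the 4 class A plexins, these 3 were over 4-fold lower on adult HSC than at P1, against 15.9% of all genes at least 4-fold lower. The fourth, Plxna1, spanned 0.76 on the log2 scale over all 8 arrays (-1.70 to -0.94), the smallest span of the 45 genes. Plxnb2, an epithelial and neural plexin, was similarly even (4.08 to 5.09), and Plxnb3 was dim throughout (-6.30 to -3.40).

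The neuropilins are co-receptors for class 3 semaphorins and for VEGF. Nrp1 stayed between -1.48 and -0.10 over the 8 arrays. Nrp2 was at 1.77 at E11.5, -0.18, -1.27 and -0.40 at E13.5, E14.5 and E17.5, 1.37 at P1 and -3.19 on adult HSC, against 3.54 on MEF and 2.12 on MSC. Both of these lay above all 6 liver-derived arrays, but the log2 difference of -3.15 ± 1.24 (SE) did not pass the threshold (limma adjusted p = 0.226). P1 was 23.7-fold above adult HSC for Nrp2, and E11.5 was 4.48-fold above E17.5.

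Netrins are laminin-related ligands, and Ntn1 had the steepest course over the stages. Its level was -3.08, -1.41, -0.74, 0.21 and 0.71 from E11.5 to P1, 4.07 on adult HSC, -0.58 on MEF and -6.04 on MSC. P1 was 13.9-fold above E11.5, E17.5 was 9.83-fold above E11.5 on the same slide, and adult HSC was 10.2-fold above P1. A second probe of Ntn1 gave log2 differences of 3.15 from E11.5 to P1 and 3.22 from P1 to adult HSC. Ntn4, a basement membrane netrin, was well above background only on adult HSC (-5.88) and MEF (-5.01).

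Unc5c and Unc5b are netrin receptors. Unc5c was at 1.86, 1.13, -0.40, -0.47 and 0.41 over the stages, -0.05 on MEF and -1.89 on MSC, and below background on adult HSC (-7.33), where P1 was at least 81.6-fold higher. By its other probe P1 was at least 19.9-fold above adult HSC. Unc5b, a receptor also found on endothelium, was well above background everywhere, from 2.13 on MSC to 4.08 on adult HSC.

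The slope over the 5 p75NTR stages was fitted with limma for 15536 genes, of which 0% passed the adjusted threshold. None of the 43 guidance genes tested passed it. At an unadjusted p under 0.05, 6 had upward slopes (Sema3b, Sema5a, Sema5b, Sema6c, Sema7a and Ntn1) and 3 downward ones (Lrp8, Robo1 and Robo2), against 12.4% and 15.6% of all genes. Ntn1 had a slope of 0.92 ± 0.11 per stage (SE; limma adjusted p = 0.0590) and Sema5a one of 0.47 ± 0.08 (SE; limma adjusted p = 0.0701). When only genes well above background at all 5 stages were tested, these passed, with adjusted p of 0.0350 and 0.0426, as did 5.18% of the 12687 genes then tested (657 genes); over all alternatives it ran up to 0.780 and 0.798. Levels of Ntn1 and Sema5a were higher, and those of Robo2 lower, at every step, a pattern of 3.31% of all genes upward and 6.75% downward. The median slope was 0.05 for the guidance genes and -0.03 for all genes. The plot of levels by stage shows the lines.

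**Figure D4:**
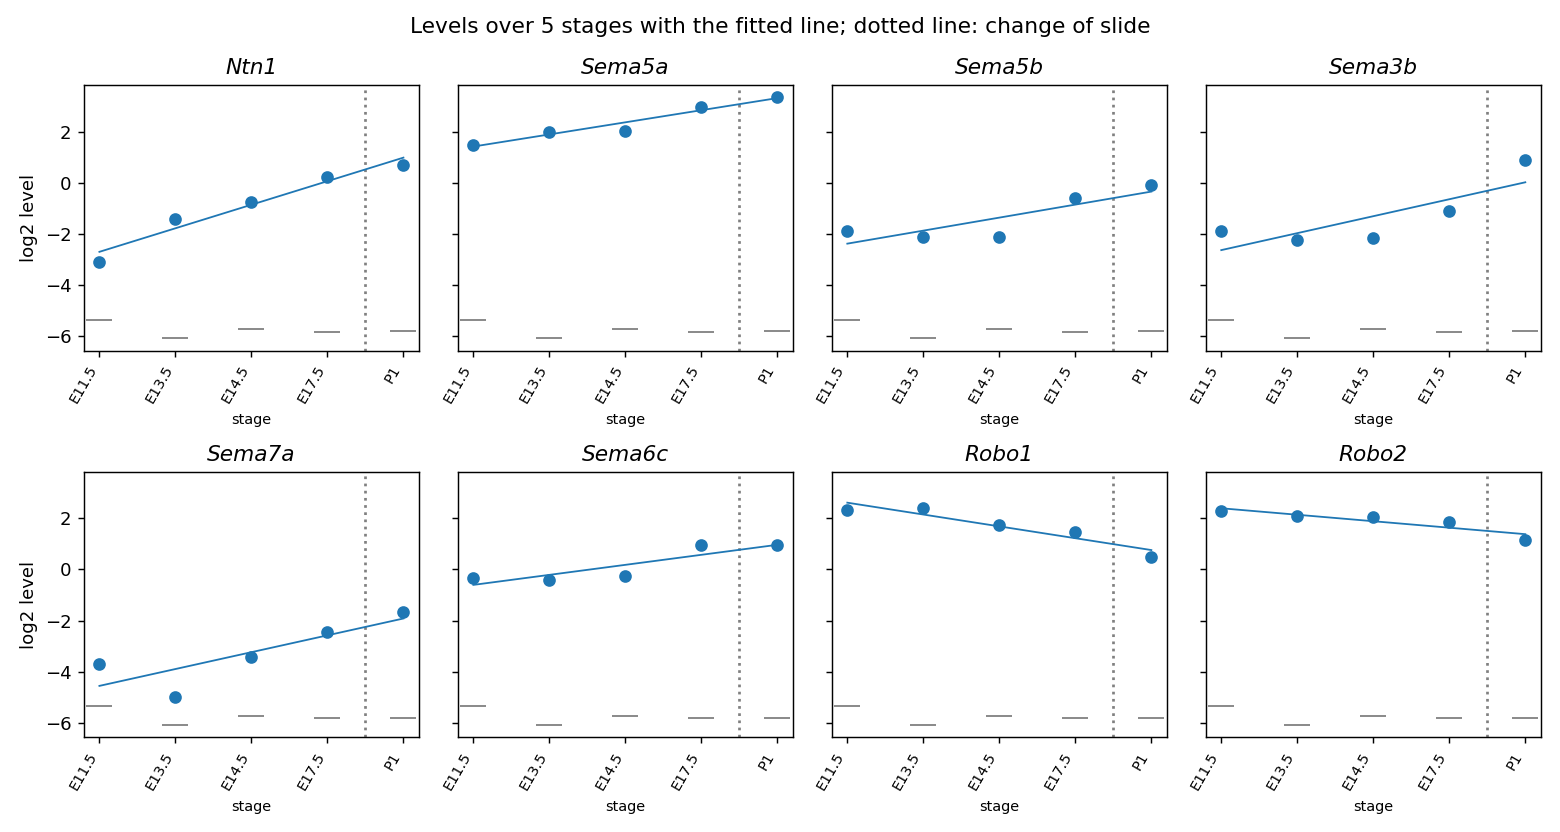
Log2 levels of 8 guidance genes on the 5 p75NTR arrays in order of stage, with the fitted line; the dotted line marks the change of slide and grey dashes the lowest signal above background per array. Ntn1 runs from -3.08 to 0.71, and Robo2 from 2.30 to 1.15.

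Between E11.5 and P1, 6 of 43 guidance genes were at least 4-fold higher at P1 (Vldlr, Sema3b, Sema3g, Sema7a, Slit2 and Ntn1) and 4 lower (Lrp8, Sema3a, Slit1 and Robo4), against 9.67% and 4.2% of all genes. For Lrp8 and Sema3g this rests on signals below background on 1 side, and their bounds are under 4-fold. Between E11.5 and E17.5, on the same slide, Ntn1 was at least 4-fold higher and Lrp8, Nrp2, Slit1, Robo4 and Unc5c lower by their signals at E17.5, against 7.34% and 5.03% of all genes. Lrp8 was below background at E17.5, with a bound of 2.71-fold. Both comparisons use the E11.5 array, whose spike-in slope was the lowest.

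The largest number of 4-fold differences lay between P1 and adult HSC, on slide 2. Of 43 genes, 17 were at least 4-fold lower on adult HSC, against 15.9% of all genes, and 3 were at least 4-fold higher (Reln, Plxnc1 and Ntn1), against 5.2%. Of the 17, 9 were below background on adult HSC, and 14 were at least 4-fold lower by value or by bound; the bounds of Sema3g, Sema4f and Slit1 were smaller. The lower genes were Vldlr, 3 class 3 semaphorins, 5 membrane semaphorins, 3 plexins, Nrp2, all 3 slits and Unc5c. The roundabouts did not join them, with Robo1, Robo2 and Robo4 each higher in level on adult HSC than at P1. The median log2 difference was -0.52 for the guidance genes and -0.06 for all genes.

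The sorts of these 2 arrays differ, p75NTR against vitamin A, and so do their other transcripts. The summed level of 7 stromal markers was 510 at P1 and 166 on adult HSC. That of 7 mesothelial markers was 6.45 and 0.10, with 1 of them above background on adult HSC. The stellate sum was 254 and 1092. The endothelial sum was 39.7 and 296, or 27.1 and 85.8 without Plvap; 8 of these 15 markers were higher and 7 lower on adult HSC, and their mean log2 level was -0.98 and -0.63. The part of each in the lower and higher guidance genes was not tested.

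**Figure D5:**
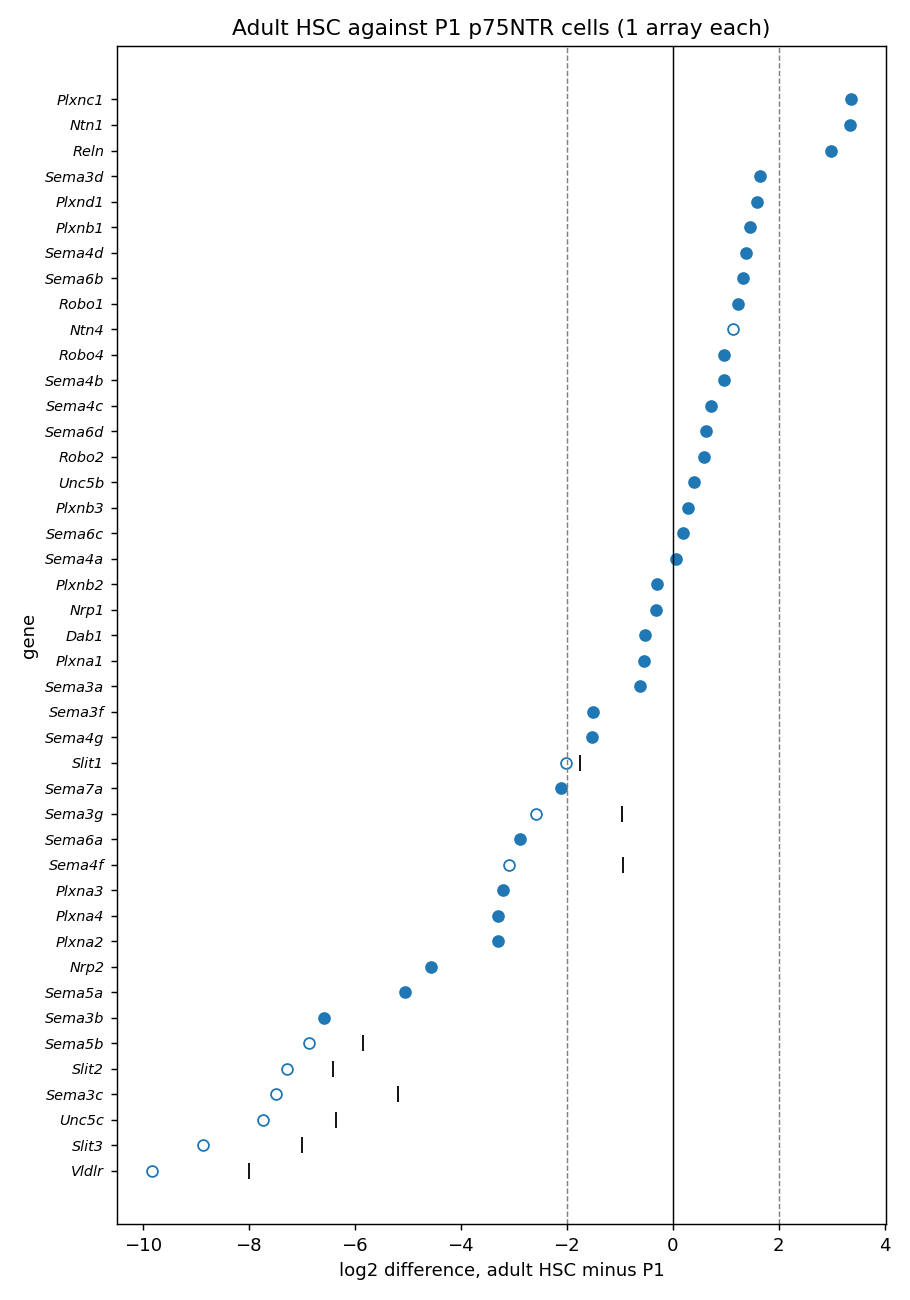
Log2 difference between adult HSC and P1 for the 43 guidance genes above background on at least 1 of both arrays, sorted; open circles have 1 side below background, ticks give their bound, and dashed lines mark 4-fold. Plxnc1, Ntn1 and Reln lie right of the upper line, and 17 genes lie left of the lower one.

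The other genes of these pathways, a list of 68 downstream effectors and further receptors and ligands, gave 67 genes to the liver fit. Unc5a, another netrin receptor, was the only one to pass, as higher, and none passed as lower. Its level was between 1.63 and 2.24 on the p75NTR arrays, 3.87 on adult HSC, -1.40 on MEF and -5.22 on MSC, a 45.6-fold difference (log2 5.51 ± 0.99, SE; limma adjusted p = 0.0447). The call was lost with normexp (adjusted p = 0.0705), with the slide as a block (adjusted p = 0.107), within slide 2 (adjusted p = 0.540) and without MSC (log2 3.60), P1 or any of the 4 fetal arrays (adjusted p from 0.0709 to 0.134). Over all alternatives its adjusted p ran from 0.00432 to 0.540. At an unadjusted p under 0.05, 3 of the 67 were higher and 6 lower (all genes: 10.7% and 8.95%). All 6 liver-derived arrays were higher for 7 of the 67 genes and lower for 7 (all genes: 12.7% and 10.4%). Of 60 tested for a slope, none passed the adjusted threshold, and at an unadjusted p under 0.05, 11 had upward and 2 downward slopes (all genes: 12.4% and 15.6%).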

How the data were processed

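The intensity values in the deposited scanner files are background-subtracted spot signals made by Agilent Feature Extraction 11.5.1.1, per the file headers. The authors' deposited log2 table, an alternative here, follows these signals over each array's 75th percentile; its column medians lie between -4.48 and -3.55, and after array offsets of -0.150 to -0.103 at least 93.2% of probes matched within 0.02. The level used here is the log2 of the processed signal less that of the same percentile. Outlier spots were dropped and spots of a probe averaged. A probe counted as well above background if over 0.5 of its spots were so marked. Probes were named through RefSeq accessions (26581 of 39429), since the files used here hold no gene name column, and for each gene the probe with the highest mean was taken; a gene entered a fit if 1 or more of its arrays exceeded background. Fits used limma 3.58.1 in R 4.3.3, tested on simulated data. Pairs of arrays have no test and were counted from 4-fold. Genes described on every array are those past a threshold in a fit, those whose groups do not overlap with a 4-fold mean difference, those 4-fold apart in a pair, and the reelin genes; single genes chosen otherwise were named after their values were seen. Members, lists and rules were chosen with earlier results of these data known. Alternatives were normexp (offset 50, on the median spot signal because no mean signal column was present), other normalizations, probe and background rules, the slide, days in place of stage order (P1 set 3 days after E17.5) and leaving out each array. The number of arrays limits the precision.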

Additional observations from a re-analysis of the deposited data

How the results depend on the processing

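No paired analysis was possible because each group holds 1 array. The 3 guidance genes called between liver-derived and other arrays became 1 with normexp, 1 among genes above background on every array, 1 with the slide as a block and 0 within slide 2. They became 5 with the mean of all probes and 5 with low signals raised to the floor. Leaving out an array gave 1 to 8: 8 without MEF, and Reln alone without E13.5, E14.5, E17.5 or P1. Reln passed in 16 of 18 alternatives, Robo2 in 11 of 18, Plxnb1 in 7 of 19 and Unc5a in 10 of 19. The stage slope gave 0 throughout except 2 (Ntn1 and Sema5a) among genes above background at every stage, and 0 to 0 with an array left out. Over all genes the liver count of 260 ranged from 86 (without E17.5) to 1283 (without MEF) when an array was left out, and was 52 with normexp, 72 with the slide as a block and 0 within slide 2. The slope count of 0 became 657 among genes above background at every stage, 107 with quantile normalization and 7 with days. The 10 genes at least 4-fold apart between E11.5 and P1 became 3 with normexp, and 21 counted from 2-fold; the 6 between E11.5 and E17.5 became 2 and 15; the 20 between P1 and adult HSC became 13 with normexp. Counts over all genes for these pairs at the changed settings are not given here, so the changes cannot be read as particular to the guidance genes. Sema3g turned to -0.15 between E11.5 and P1 with normexp. Signs were followed for 17 guidance genes with an unadjusted p under 0.05, with groups that do not overlap, or chosen besides (Reln, Vldlr and Lrp8). This selection was made after these alternatives were seen. None of the 17 changed sign in the liver comparison under an alternative, nor did the 11 such genes in the slope. The same fits chose most of these genes, and groups that do not overlap keep their sign whichever array is left out. The unchanged signs therefore cannot show that these results are stable. Of the other members, which passed no threshold, 20 of 28 did in the liver comparison and 21 of 32 in the slope, so their fitted directions are not reported. The median of all genes moved from 0.02 to 0.34 with normexp and to -0.36 with median normalization. Where a probe was below background on adult HSC, MEF or MSC, the size of its difference is known only as a bound. Of the 17 guidance genes at least 4-fold lower on adult HSC than at P1, 8 were above background there. The cause of a change under an alternative was not tested.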
